A study of Mus musculus with 24 samples.

Results

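Expression of 9 genes of peroxisomal fatty acid β-oxidation and peroxisome proliferation was followed through livers of fasted mice, of 35275 genes in the deposited count table. They were taken from the table by gene name: the transporters Abcd2 and Abcd3, the carnitine octanoyltransferase Crot, the bifunctional enzymes Ehhadh and Hsd17b4, the thiolases Acaa1a, Acaa1b and Scp2, and Pex11a. All 9 were found in the table and all 9 passed the filter on low counts. Liver RNA came from male C57BL/6 mice of 8 to 10 weeks, fasted for 24 hours, with 4 libraries in each of 6 groups; the study's methods give a chow diet for the first 4 groups. Control mice, called wild type in the labels, had floxed Tsc1 and Cpt2 alleles and no Cre. The study's methods call them littermates in the account of the Tsc1 and Cpt2 cross. Those methods do not describe the Ppara mice. Tsc1 L-/- mice had a liver-specific deletion of Tsc1, an inhibitor of the growth kinase complex mTorc1. Cpt2 L-/- mice lacked Cpt2, the carnitine palmitoyltransferase that mitochondria need to burn long-chain fatty acids, and Tsc1Cpt2 L-/- mice, called DKO here, lacked both. These deletions were driven by an Albumin promoter Cre, which acts in hepatocytes. Whether other liver cells were also altered is not given in the sources used here. The PPAR-a KO mice carried a knockout of Ppara, a fasting-activated nuclear receptor, and the Cpt2L-/- Ppara KO mice carried it together with the Cpt2 deletion; how the Ppara allele was made, and in which cells it is lost, is not given in the sources used here. Each library has an identifier of its own in the labels, none of which says whether it is a separate animal, so p-values measure only the spread between these libraries.

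Peroxisomes shorten very long-chain, branched and dicarboxylic fatty acids. Acyl-CoAs enter through ABCD transporters, an acyl-CoA oxidase starts each round, a bifunctional enzyme hydrates and dehydrogenates, and a thiolase releases acetyl-CoA; Crot then loads the shortened chains onto carnitine for export to mitochondria. Pex11a, a peroxisomal membrane protein, takes part in the elongation and division of the organelle. In rodent liver many of these genes are known targets of Pparα, which binds as a partner of RXR to direct repeats of the hexamer AGGTCA, and the pathway is known for its induction by fasting and by peroxisome proliferators.

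Some libraries stood apart before any comparison was made. In replicate 1 of the Cpt2L-/- Ppara KO mice, 8 of the 9 genes were above all 3 other libraries of that group, with Ehhadh at 3618 CPM (counts scaled to library size after TMM normalization) against 132 to 169.8 CPM. In that library Tsc1 was at 24.3 CPM, against 42.4 to 50.6 CPM in the other 3 and 18.02 to 28.6 CPM in Tsc1 L-/- livers, Cpt2 was at 126 CPM against 31.7 to 39.1 CPM, and Ppara was at 91.9 CPM against 26.2 to 46.2 CPM. The level of Tsc1, within the range of Tsc1 L-/- livers, goes against the genotype label of that library. Ppara was above its group but still below every control library (213 to 276 CPM). The level of Cpt2 cannot speak to the label, as whole-gene counts did not show that deletion (below). The tests with this group are given with and without the library, and those with all 4 libraries hold only if the label is right. Other libraries also lay to one side of their group: control replicate 1 was below the other 3 for 8 of the 9 genes and Cpt2 L-/- replicate 1 for 7, and Tsc1 L-/- replicate 1 and DKO replicate 4 were above for 7. Counts checked the other deletions unevenly: control livers had 256 ± 29.5 CPM of Ppara and PPAR-a KO livers 27.4 ± 16.8 CPM (SD, n = 4), and control livers had 38.1 ± 1.39 CPM of Tsc1, Tsc1 L-/- livers 24.4 ± 4.49 CPM and DKO livers 16.6 ± 1.22 CPM. Control livers had 97.6 ± 6.84 CPM of Cpt2, Cpt2 L-/- livers 92.3 ± 10.1 CPM and DKO livers 96.9 ± 17.6 CPM. Whole-gene counts thus did not show its deletion, and the Cpt2 L-/- group is named here by its label. The study reported the loss of Cpt2 and Tsc1 protein in the respective mice by Western blot. Cd1d2, a gene singled out after its values were seen, had 1 to 13 counts in the 12 Cpt2 L-/-, PPAR-a KO and Cpt2L-/- Ppara KO libraries and 211 to 1021 counts in the 12 others. Cpt2 L-/- and PPAR-a KO livers were thus compared with control livers, and DKO with Cpt2 L-/- livers, across that split, which in those comparisons and in both interactions cannot be told apart from genotype. Tsc1 L-/-, DKO and control libraries lay on the same side of it, as did Cpt2L-/- Ppara KO, PPAR-a KO and Cpt2 L-/- libraries. Total counts per library were 14470968 to 20371204.

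Hepatocyte markers were abundant in every library. The summed level of 5 hepatocyte markers spanned, in CPM, 59385 to 75587 for control, 37342 to 60573 for Tsc1 L-/-, 33500.4 to 56538 for Cpt2 L-/-, 26721.5 to 33117 for DKO, 52975 to 71531 for PPAR-a KO and 38169.5 to 54455 for Cpt2L-/- Ppara KO livers. DKO livers were below every other group in this sum, which is mostly Alb, with averages of 43410 CPM over control, 28870 CPM over Cpt2 L-/- and 12720 CPM over DKO livers. Cps1 was also lowest in DKO livers, whereas Apoa1 was close to Cpt2 L-/- livers (10640 and 10920 CPM) and Ttr (2597 and 1744 CPM) and Serpina1c (248 and 235 CPM) were not lower there. The 4 Kupffer cell markers found summed to 88.0 to 133 CPM in DKO livers (control 160.0 to 272). The 4 cholangiocyte markers summed to 12.6 to 28.9 CPM in PPAR-a KO livers (control 4.74 to 9.86). This was mostly Sox9, at 16.1 against 3.23 CPM on average. Krt7 was also higher (1.82 against 0.736 CPM), and Krt19 and Epcam were not. The 5 adipocyte markers summed to 0.160 to 17.5 CPM in Cpt2 L-/- livers (control at most 2.47). The highest library carried most of this, as group means were 3.12 CPM for Cfd and at most 0.663 CPM for the others. In control livers 3 of those 5 were at 0 in all libraries. Stellate cell or fibroblast markers summed to 156 to 235 CPM in Tsc1 L-/-, 151 to 189 CPM in DKO and 169 to 218 CPM in Cpt2L-/- Ppara KO livers (control 240.1 to 321), endothelial markers to 133 to 229 CPM in Cpt2L-/- Ppara KO livers (control 256 to 285) and lymphocyte markers to 0.947 to 1.56 CPM in Tsc1 L-/- and 0.755 to 1.205 CPM in PPAR-a KO livers (control 1.66 to 7.05). In Cpt2L-/- Ppara KO livers the endothelial markers Clec4g (44.3 against 28.0 CPM) and Lyve1 (30.3 against 19.5 CPM) were higher on average than in control. Stab2, Pecam1 and Kdr were lower. Of the stellate cell markers Lrat (15.1 against 13.3 CPM) was not lower there, Dcn was close (146 against 148 CPM), and Col1a1, Col3a1 and Reln were lower. In bulk tissue, fewer hepatocytes and less RNA of a gene per hepatocyte cannot be told apart. The part of these shifts in the results was not tested.

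Promoter windows were compared for a feature that the choice of genes did not use. RefSeq windows from 250 bases before to 50 bases after the start site (GRCm38.p6) were found for 7 of the 9 genes. The windows of 4 genes are printed 5′ to 3′ on the strand of the gene, for the genes on which the results below turn and for Acaa1a, the paralog of Acaa1b; capitals mark each match to AGGNCA on either strand.
Ehhadh, chr16:21787785-21788084, minus strand: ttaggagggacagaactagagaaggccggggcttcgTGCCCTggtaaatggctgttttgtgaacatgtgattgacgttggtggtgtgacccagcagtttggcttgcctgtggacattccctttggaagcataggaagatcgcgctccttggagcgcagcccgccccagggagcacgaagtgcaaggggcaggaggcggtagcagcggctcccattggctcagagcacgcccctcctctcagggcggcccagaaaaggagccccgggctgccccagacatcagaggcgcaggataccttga
Acaa1b, chr9:119157044-119157343, minus strand: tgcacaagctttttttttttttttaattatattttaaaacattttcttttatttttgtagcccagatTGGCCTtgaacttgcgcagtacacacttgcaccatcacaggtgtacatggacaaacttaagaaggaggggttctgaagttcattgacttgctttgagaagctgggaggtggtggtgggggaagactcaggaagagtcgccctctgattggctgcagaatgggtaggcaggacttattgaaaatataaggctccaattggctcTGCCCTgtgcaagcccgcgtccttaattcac
Acaa1a, chr9:119341044-119341343, plus strand: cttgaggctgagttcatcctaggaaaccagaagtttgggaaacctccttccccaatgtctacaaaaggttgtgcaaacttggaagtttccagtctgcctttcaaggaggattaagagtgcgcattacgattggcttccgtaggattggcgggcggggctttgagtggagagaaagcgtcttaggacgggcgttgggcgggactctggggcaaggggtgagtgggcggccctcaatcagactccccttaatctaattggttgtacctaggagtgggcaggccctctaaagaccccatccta
Pex11a, chr7:79743082-79743381, minus strand: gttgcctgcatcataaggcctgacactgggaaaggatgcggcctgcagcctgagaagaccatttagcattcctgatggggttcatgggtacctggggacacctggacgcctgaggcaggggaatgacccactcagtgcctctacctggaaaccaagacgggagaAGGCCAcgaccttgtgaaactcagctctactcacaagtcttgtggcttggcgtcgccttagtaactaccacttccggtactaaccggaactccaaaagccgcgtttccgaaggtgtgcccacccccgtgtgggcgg
The hexamer AGGNCA was found once in the windows of Ehhadh and Pex11a, at 2 places in that of Acaa1b and nowhere in that of Acaa1a; 57.2% of 32851 RefSeq promoter windows held it. A direct repeat of AGGTCA, or of AGGNCA, with a single base between the copies was searched on both strands and was in no window of these 7 genes, beside 0.0396% and 0.381% of all windows. The plain hexamer AGGTCA occurred in the window of Scp2 alone, and in 16.3% of all windows. No match means only that these letters were not in these 300 bases.

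Before any deletion the pathway was already abundant in the fasted liver. In control livers the 9 genes took 1.37% ± 0.250 of all counts (SD, n = 4). Per length, Scp2 was at 1846 ± 193 FPKM, Acaa1b at 1506 ± 381 FPKM and Ehhadh at 1042 ± 355 FPKM, the level of Abcd2 was 8.47 ± 3.80 FPKM, and the other 5 genes had mean levels from 86.7 to 342 FPKM. The share of all counts was 0.756% ± 0.138 in Tsc1 L-/-, 2.64% ± 0.164 in Cpt2 L-/-, 2.49% ± 0.558 in DKO, 0.476% ± 0.0946 in PPAR-a KO and 0.800% ± 0.288 in Cpt2L-/- Ppara KO livers (1.22% in replicate 1, 0.575% to 0.710% in the other 3). Cpt2 L-/- and DKO livers thus lay above control livers and Tsc1 L-/- and PPAR-a KO livers below, without overlap of the libraries (1.04% to 1.64% in control, at most 0.921% in Tsc1 L-/-, at least 2.42% in Cpt2 L-/- and 1.99% in DKO).

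**Figure D1:**
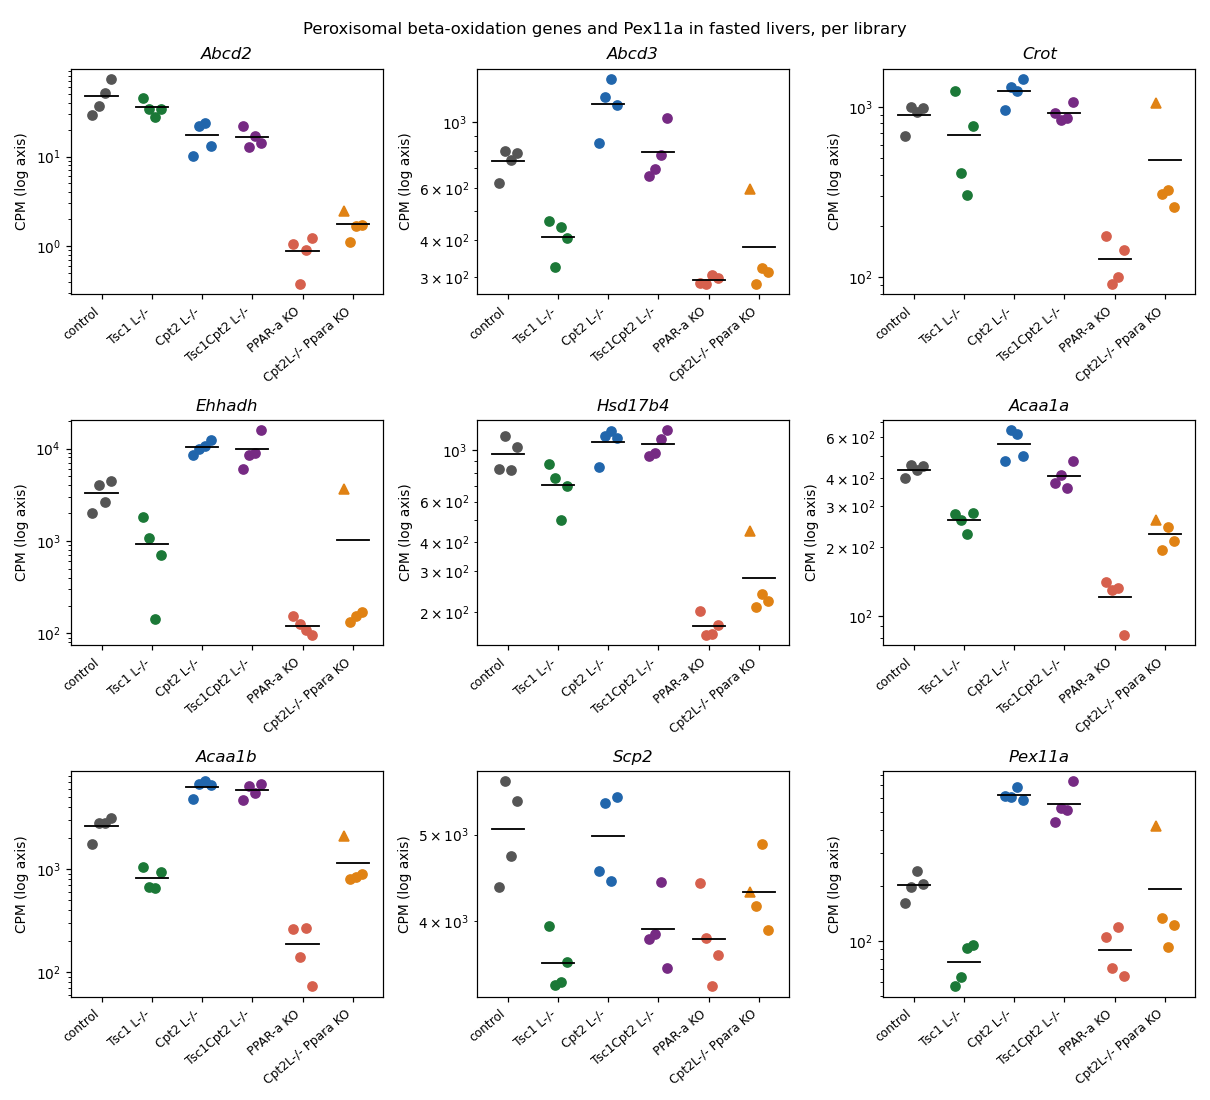
Level of each of the 9 genes in CPM (log axis) in each library of the 6 groups; points are libraries, the triangle is replicate 1 of the Cpt2L-/- Ppara KO mice, and bars are group means (n = 4). Pex11a lay at 584 CPM or more in Cpt2 L-/- livers and at 241 CPM or less in control livers, and the triangle lies above its group for all genes but Scp2.

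Counted over the set, the genes moved with each genotype as follows, with calls at an adjusted p under 0.05 in edgeR. In Tsc1 L-/- livers 0 of 9 were higher and 5 were lower than in control, where 4.16% and 2.48% of all tested genes were called, 6.64% in either direction. Cpt2 L-/- livers had 4 higher and 1 lower (16.2% and 14.9% of all genes, 31% in either), and DKO livers 3 higher and 2 lower (19.3% and 17.1%, 36.4% in either). DKO livers had 0 higher and 2 lower than Cpt2 L-/- livers (10.9% and 7.4%, 18.3% in either), and 6 higher and 1 lower than Tsc1 L-/- livers (16.9% and 15.2%, 32.2% in either). In PPAR-a KO livers 8 were lower than in control and 0 higher, where 13.2% and 15.9% of all genes were called, 29% in either direction. Cpt2L-/- Ppara KO livers had 8 lower than Cpt2 L-/- livers (8.01% of all genes) and 0 higher (10.3%; 18.4% in either). Without replicate 1 they had 8 lower and 0 higher as well (6.59% and 6.74% of all genes; 13.3% in either). Against PPAR-a KO livers they had 6 higher, beside 12.9% of all genes, and 3 without replicate 1, beside 5.74%; none was lower (12.6% of all genes; 25.5% in either direction). The median log2 fold change of the 9 genes was −0.73 in Tsc1 L-/-, 0.44 in Cpt2 L-/-, 0.09 in DKO and −2.47 in PPAR-a KO livers against control, whereas the median of all genes was between −0.02 and 0.02. These 4 comparisons share the 4 control libraries.

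**Figure D2:**
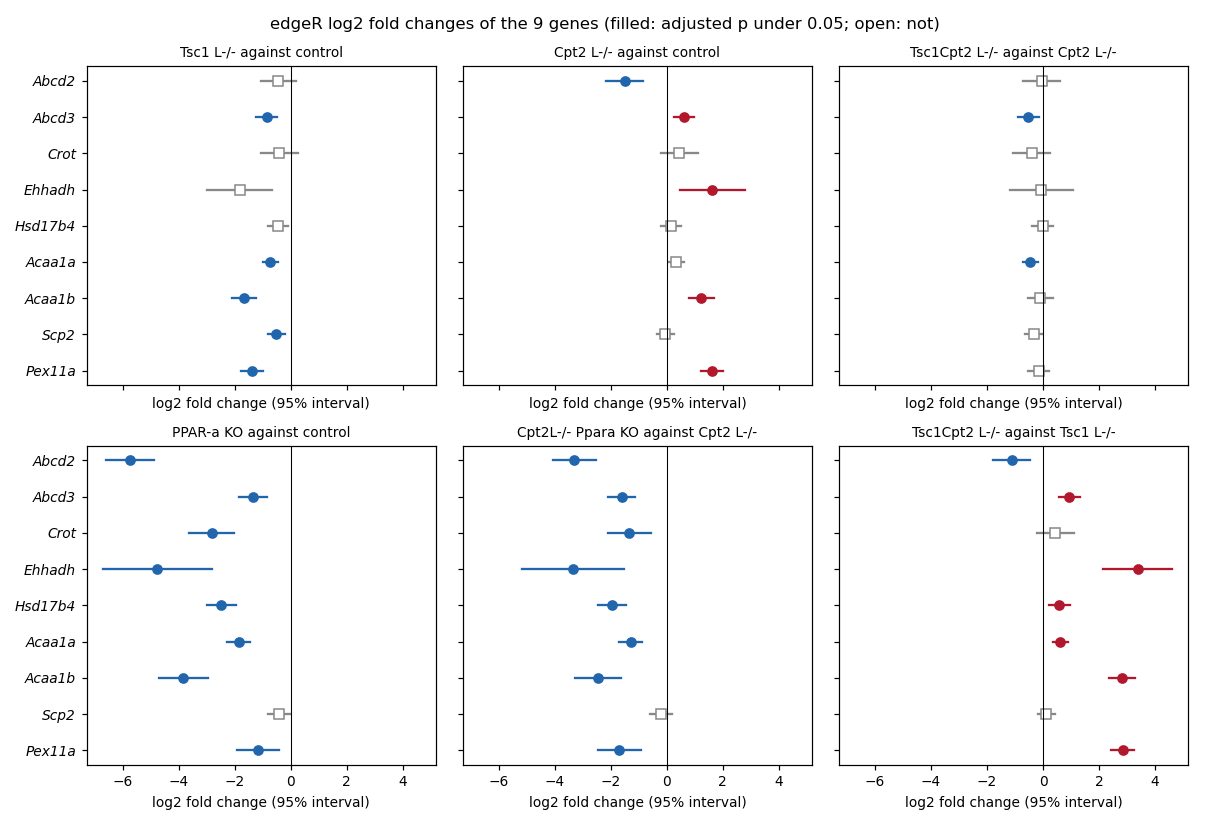
edgeR log2 fold changes of the 9 genes with 95% intervals in 6 comparisons; filled points passed an adjusted p of 0.05 (red higher, blue lower) and open squares did not. PPAR-a KO livers had 8 filled points below 0, from −1.17 for Pex11a to −5.72 for Abcd2.

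Among the transporters, Abcd3 and Abcd2 went opposite ways when Cpt2 was deleted. Abcd3 (ENSMUSG00000028127; chromosome 3, 121758909 to 121815302, minus strand, GRCm38), which carries branched and long-chain dicarboxylic acyl-CoAs, was at 624, 797, 748 and 785 CPM in the 4 control libraries and at 847, 1214, 1402 and 1147 CPM in the Cpt2 L-/- libraries. All Cpt2 L-/- libraries were above all control libraries. It rose by a log2 fold change of 0.61 ± 0.17 (SE, adjusted p = 0.0117). Abcd3 in Tsc1 L-/- livers was at 463, 323, 443 and 406 CPM, again without overlap with control, and fell by 0.86 ± 0.17 on the log2 scale (SE, adjusted p = 0.0062). DKO libraries, at 659, 696, 773 and 1033 CPM, overlapped control (log2 0.09, 95% interval −0.28 to 0.45) and were above Tsc1 L-/- livers by 0.94 ± 0.17 (SE, adjusted p = 0.000495).

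Abcd2 (ENSMUSG00000055782; chromosome 15, 91145884 to 91191807, minus strand), a transporter of very long-chain acyl-CoAs and the least abundant of the 9 per length, was at 29.4, 36.9, 51.5 and 74.2 CPM in control libraries and at 10.0, 21.9, 23.8 and 13.3 CPM in Cpt2 L-/- libraries. DKO libraries had 22.2, 12.7, 17.0 and 14.1 CPM. Both groups lay wholly below control. Abcd2 fell by 1.503 ± 0.31 (adjusted p = 0.00181) and 1.55 ± 0.31 (adjusted p = 0.00128) on the log2 scale, and by 1.12 ± 0.31 in DKO against Tsc1 L-/- livers (SE, adjusted p = 0.0118). In Tsc1 L-/- livers, at 27.6 to 45.8 CPM, it overlapped control (log2 −0.43, 95% interval −1.07 to 0.21; adjusted p = 0.452).

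Abcd2 was nearly absent without Ppara. The PPAR-a KO libraries had 1.05, 0.377, 0.893 and 1.24 CPM, from 5 to 23 counts, and the Cpt2L-/- Ppara KO libraries 2.46, 1.11, 1.67 and 1.72 CPM, from 16 to 37 counts. It fell 52.9-fold in PPAR-a KO against control livers (log2 −5.72 ± 0.41, SE, adjusted p = 1.89e-07) and 9.86-fold in Cpt2L-/- Ppara KO against Cpt2 L-/- livers (log2 −3.30 ± 0.36; adjusted p = 2.31e-05; −3.49 ± 0.40 without replicate 1), and the 2 effects differed by 2.42 ± 0.52 (SE) on the log2 scale in the interaction of the Cpt2 deletion and the Ppara knockout (adjusted p = 0.00394). Without replicate 1 that difference was 2.23 ± 0.54 (SE, adjusted p = 0.00854). At so few counts the size depended on the scale: with limma on log2(FPKM + 1) the values were −2.95, −1.61 and 1.34, each still called. Abcd3 fell less, by 1.34 ± 0.23 in PPAR-a KO livers (284 to 304 CPM; adjusted p = 0.000459) and by 1.61 ± 0.23 in Cpt2L-/- Ppara KO against Cpt2 L-/- livers (SE, adjusted p = 0.000317), or 1.91 ± 0.18 without replicate 1.

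Of the bifunctional enzymes, Ehhadh had larger differences between genotypes than Hsd17b4, and both fell where Ppara was lost. Ehhadh (ENSMUSG00000022853; chromosome 16, 21761287 to 21787844, minus strand), the L-bifunctional enzyme that also serves dicarboxylic acids, was at 1994, 4065, 2633 and 4453 CPM in control libraries. Cpt2 L-/- libraries had 8464, 9778, 10712 and 12461 CPM. DKO libraries had 6060.1, 8439, 8905 and 15826 CPM. Every Cpt2 L-/- and DKO library was above every control library, with a rise of 3.09-fold (log2 1.63 ± 0.54, SE, adjusted p = 0.0322) and 2.97-fold (log2 1.57 ± 0.54; adjusted p = 0.0334). The call in Cpt2 L-/- livers was lost under 7 of 17 alternatives. Among these were leaving out control replicate 1 or 3 or Cpt2 L-/- replicate 3 or 4, and the fit with the Ppara libraries. That in DKO livers was lost under 6 of 16: without control replicate 1 or 3 or DKO replicate 3 or 4, without a filter and with all 24 libraries. Over all alternatives the adjusted p ran up to 0.191 and 0.181.

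Ehhadh in Tsc1 L-/- livers was at 1805, 1085.5, 142 and 713 CPM, below all control libraries, with replicate 3 far below the other 3. The log2 fold change was −1.81 ± 0.54 (SE; 95% interval −2.97 to −0.66) and did not pass (adjusted p = 0.0609). It passed under 5 of 16 alternatives: DESeq2 (adjusted p = 0.00379), limma on either log2 FPKM scale, and edgeR without replicate 1 (−2.34; adjusted p = 0.0257) or without replicate 3 (−1.45; adjusted p = 0.0235) of the Tsc1 L-/- mice. DKO livers had 10.4-fold more Ehhadh than Tsc1 L-/- livers (log2 3.38 ± 0.57, SE, adjusted p = 0.000475), the largest rise of the 9 genes in that comparison.

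Without Ppara, Ehhadh was at 154, 127, 109 and 95.9 CPM, and fell 27.1-fold against control (log2 −4.76 ± 0.92, SE, adjusted p = 0.00136). The 4 Cpt2L-/- Ppara KO libraries had 3618, 132, 154 and 169.8 CPM. Replicate 1 lay among control libraries and the other 3 overlapped PPAR-a KO libraries. With all 4, Ehhadh was 10.2-fold lower than in Cpt2 L-/- livers (log2 −3.35 ± 0.86, SE, adjusted p = 0.0157; lost without a filter and with only the 2 groups in the fit, up to 0.055) and 8.22-fold higher than in PPAR-a KO livers (log2 3.04 ± 0.85; adjusted p = 0.0192). Without replicate 1 its log2 fold change against Cpt2 L-/- livers was −6.08 ± 0.34 (SE, adjusted p = 1.74e-08), and its difference from PPAR-a KO livers was 0.30 ± 0.26 (SE, adjusted p = 0.463).

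Hsd17b4 (ENSMUSG00000024507; chromosome 18, plus strand), the D-bifunctional enzyme of branched and very long chains, was at 828, 1150.0, 823 and 1037 CPM across control libraries. Cpt2 L-/- libraries had 848, 1154, 1209 and 1133 CPM, and DKO libraries 940.4, 974, 1114 and 1222 CPM. These 3 groups overlapped, with log2 fold changes against control of 0.15 (95% interval −0.21 to 0.51) in Cpt2 L-/- and 0.14 (−0.23 to 0.50) in DKO livers. Tsc1 L-/- livers had 501 to 871 CPM (log2 −0.44 ± 0.17, SE, adjusted p = 0.143), and DKO livers were higher than these by 0.58 ± 0.17 (SE, adjusted p = 0.0158), a call lost without Tsc1 L-/- replicate 3, without DKO replicate 4 and in a fit of all 24 libraries (adjusted p up to 0.0644). PPAR-a KO libraries had 201, 159, 161 and 176 CPM, all below every control library. Hsd17b4 fell 5.54-fold there (log2 −2.47 ± 0.25, SE, adjusted p = 4.17e-06) and 3.87-fold in Cpt2L-/- Ppara KO against Cpt2 L-/- livers (log2 −1.95 ± 0.24; adjusted p = 8.02e-05; −2.27 ± 0.19 without replicate 1). Its rise of 0.66 ± 0.23 in Cpt2L-/- Ppara KO against PPAR-a KO livers (SE, adjusted p = 0.046) was 0.34 ± 0.18 without replicate 1 (adjusted p = 0.202).

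The balance between the bifunctional enzymes followed Ehhadh. In control livers the ratio of Ehhadh to Hsd17b4 FPKM was 2.99 ± 0.696 (SD, n = 4), and it was 1.07 ± 0.667 in Tsc1 L-/-, 8.52 ± 1.01 in Cpt2 L-/-, 8.02 ± 2.48 in DKO and 0.621 ± 0.102 in PPAR-a KO livers. The Cpt2L-/- Ppara KO libraries had ratios of 7.15 in replicate 1 and 0.561, 0.572 and 0.680 in the other 3. The ratio is a description, without a test.

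**Figure D3:**
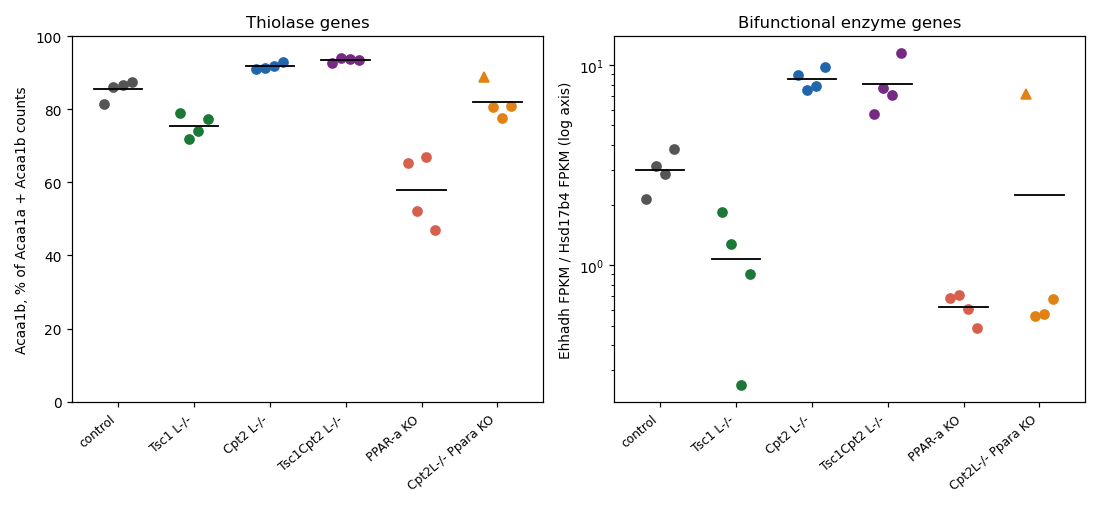
Left, share of Acaa1b in the counts of Acaa1a and Acaa1b, in percent; right, ratio of Ehhadh to Hsd17b4 FPKM (log axis); points are libraries, the triangle is replicate 1 of the Cpt2L-/- Ppara KO mice and bars are group means (n = 4). PPAR-a KO libraries lie between 47.0% and 67.0% in the left plot, below all others.

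Of the thiolases, Acaa1b differed most between genotypes, its paralog Acaa1a less and Scp2 least. Acaa1b (ENSMUSG00000010651; chromosome 9, 119148023 to 119157093, minus strand) was at 1763, 2796, 2826 and 3148 CPM in control libraries. Tsc1 L-/- libraries had 1049.7, 667, 652 and 952 CPM. Cpt2 L-/- libraries had 4819, 6719, 7152 and 6613 CPM. The 3 groups did not overlap: Acaa1b fell 3.17-fold in Tsc1 L-/- livers (log2 −1.67 ± 0.21, SE, adjusted p = 0.000106) and rose 2.36-fold in Cpt2 L-/- livers (log2 1.24 ± 0.21; adjusted p = 0.000222). DKO libraries, at 4748, 6488, 5495 and 6707 CPM, overlapped Cpt2 L-/- libraries, were 2.21-fold above control (log2 1.15 ± 0.21, SE, adjusted p = 0.000358) and 7.02-fold above Tsc1 L-/- livers (log2 2.81 ± 0.22, SE, adjusted p = 1.79e-07).

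Acaa1b was the member whose rise with the Cpt2 deletion was largest in the absence of Ppara once replicate 1 was left out. PPAR-a KO libraries had 264.2, 141, 269 and 73.0 CPM, a 14.2-fold fall against control (log2 −3.82 ± 0.42, SE, adjusted p = 9.07e-06). Cpt2L-/- Ppara KO libraries had 2089.9, 807, 851 and 894 CPM, all above the PPAR-a KO libraries. The rise was 2.62 ± 0.39 on the log2 scale with all 4 libraries (SE, adjusted p = 0.00135) and 2.17 ± 0.34 without replicate 1 (adjusted p = 0.00252). The level remained below that of Cpt2 L-/- livers (log2 −2.44 ± 0.39, SE, adjusted p = 0.000643; −2.89 ± 0.37 without replicate 1).

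Acaa1a (ENSMUSG00000036138; chromosome 9, 119339676 to 119350299, plus strand) lies 182.6 kilobases from Acaa1b. It was at 401, 454, 434 and 448 CPM in control libraries and at 278, 263, 229 and 279.6 CPM in Tsc1 L-/- libraries, a fall of 0.73 ± 0.13 on the log2 scale without overlap (SE, adjusted p = 0.0021). Cpt2 L-/- libraries had 471.7, 646, 623 and 498 CPM, all above control, but the difference did not pass (log2 0.34 ± 0.13, SE, adjusted p = 0.0531). It passed under 6 of 17 alternatives, among them DESeq2 and limma (adjusted p down to 0.0149). DKO libraries had 379, 410.0, 361 and 471 CPM, which overlapped control (log2 −0.11, 95% interval −0.38 to 0.16) and lay above Tsc1 L-/- libraries (log2 0.62 ± 0.13, SE, adjusted p = 0.0013). In PPAR-a KO livers, at 140.2, 129.9, 133 and 82.3 CPM, the log2 fold change was −1.84 ± 0.19 (SE, adjusted p = 6.97e-06). It was higher in Cpt2L-/- Ppara KO than in PPAR-a KO livers by 0.89 ± 0.19 (SE, adjusted p = 0.0063), a call lost with only the 2 groups in the fit (adjusted p = 0.0663). Without replicate 1 it was higher by 0.82 ± 0.19 (adjusted p = 0.0158). It stayed below Cpt2 L-/- livers, with a log2 fold change of −1.29 ± 0.19 (SE, adjusted p = 0.000356), or −1.37 ± 0.20 without replicate 1.

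With these unequal changes, Acaa1b made up 85.4% ± 2.71 of the counts of the 2 paralogs in control livers (SD, n = 4), 75.5% ± 3.27 in Tsc1 L-/-, 91.8% ± 0.875 in Cpt2 L-/-, 93.5% ± 0.637 in DKO, 57.9% ± 9.84 in PPAR-a KO and 82.0% ± 4.78 in Cpt2L-/- Ppara KO livers (88.8% in replicate 1, 77.7% to 80.9% in the other 3), given without a test. The share in Tsc1 L-/- livers, at most 79.1%, lay below the 81.5% to 87.5% of control livers. Of the 75-base words in GENCODE transcripts, 24.4% of those of Acaa1b and 9.50% of those of Acaa1a were shared between the paralogs, so that reads of one may have been counted for the other or left out.

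Scp2 (ENSMUSG00000028603; chromosome 4, 108043839 to 108144998, minus strand), whose longer product is the thiolase of branched chains and whose shorter product is a sterol carrier protein, was at 4371, 5741, 4736 and 5451 CPM in control libraries and at 3942, 3387, 3415 and 3591 CPM in Tsc1 L-/- libraries. It fell by 0.50 ± 0.14 on the log2 scale in Tsc1 L-/- livers (SE, adjusted p = 0.0406), a call lost on leaving out control replicate 2, 3 or 4 or Tsc1 L-/- replicate 2, 3 or 4 (adjusted p up to 0.121) and also without a filter, with the replicate block, with all 24 libraries and with only the 2 groups, 10 of 16 alternatives in all. In DKO livers, at 3537 to 4422 CPM, it was lower than in control by a log2 fold change of −0.39 ± 0.14 (SE, adjusted p = 0.0423), which did not pass under 11 of 16 alternatives. In PPAR-a KO livers, at 3374 to 4412 CPM, the difference from control was −0.42 (95% interval −0.81 to −0.03; adjusted p = 0.101), and in Cpt2 L-/- livers −0.05 (−0.35 to 0.24). Among the 9 genes it was the only one that edgeR did not call in any comparison with Ppara knockout libraries; DESeq2 called it lower in PPAR-a KO than in control livers (adjusted p = 0.0128). Scp2 shared 25.6% of its 75-base words with the pseudogene Scp2-ps2.

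Crot, which prepares shortened chains for export, was called by edgeR, with all libraries, only in comparisons with Ppara knockout livers. Crot (ENSMUSG00000003623; chromosome 5, 8966033 to 8997324, minus strand) was at 670.0, 993, 932 and 984 CPM across control libraries. Tsc1 L-/- libraries had 1239, 409, 302 and 775 CPM, and Cpt2 L-/- libraries 962, 1301, 1229 and 1459 CPM. The groups overlapped, and no difference among control, Tsc1 L-/-, Cpt2 L-/- and DKO livers passed; the 95% interval was −1.05 to 0.26 in Tsc1 L-/- and −0.22 to 1.10 in Cpt2 L-/- livers against control. PPAR-a KO libraries had 174, 91.4, 100.003 and 144 CPM, a 7.06-fold fall (log2 −2.82 ± 0.38, SE, adjusted p = 6.61e-05). Cpt2L-/- Ppara KO libraries had 1057, 307, 324 and 259.6 CPM. All 4 lay above the PPAR-a KO libraries, by 1.91 ± 0.37 on the log2 scale (SE, adjusted p = 0.00464), or 1.204 ± 0.22 without replicate 1 (adjusted p = 0.00651). With only the 2 groups in the fit this rise was not called (adjusted p = 0.0581). Against Cpt2 L-/- livers the log2 fold change of Crot was −1.34 ± 0.37 (SE, adjusted p = 0.0186), with replicate 1 within the range of Cpt2 L-/- libraries. The call was lost without Cpt2 L-/- replicate 4, without Cpt2L-/- Ppara KO replicate 2 and with only the 2 groups in the fit (adjusted p up to 0.065), and the value was −2.05 ± 0.24 without replicate 1 (adjusted p = 2.315e-05).

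The organelle gene Pex11a was lower in Tsc1 L-/- and higher in Cpt2 L-/- and DKO livers. Pex11a (ENSMUSG00000030545; chromosome 7, 79735957 to 79743131, minus strand) was at 161, 196, 241 and 204 CPM in control libraries. Tsc1 L-/- libraries had 56.7, 63.9, 91.4 and 94.95 CPM. Cpt2 L-/- libraries had 615, 604, 689.5 and 584 CPM. The 3 groups did not overlap, and Pex11a fell 2.62-fold in Tsc1 L-/- livers (log2 −1.39 ± 0.18, SE, adjusted p = 0.000166) and rose 3.05-fold in Cpt2 L-/- livers (log2 1.61 ± 0.19; adjusted p = 7.04e-06). DKO libraries had 441, 528, 514 and 736 CPM, which overlapped Cpt2 L-/- libraries and were 2.75-fold above control (log2 1.46 ± 0.18, SE, adjusted p = 1.09e-05) and 7.19-fold above Tsc1 L-/- livers (log2 2.85 ± 0.19; adjusted p = 3.85e-08).

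Without Ppara, Pex11a was at 105, 71.7, 119 and 64.6 CPM, and fell 2.24-fold against control (log2 −1.17 ± 0.36, SE, adjusted p = 0.02155), the smallest of the 8 called falls there and lost without control replicate 3 or PPAR-a KO replicate 2 or 4 (adjusted p up to 0.0591). Cpt2L-/- Ppara KO libraries had 422, 133, 92.3 and 123 CPM. Replicate 1 was above all control libraries and the other 3 overlapped PPAR-a KO libraries. The log2 fold change of Pex11a against Cpt2 L-/- livers was −1.70 ± 0.36 (SE, adjusted p = 0.005425), or −2.42 ± 0.22 without replicate 1 (adjusted p = 2.09e-06). Its rise over PPAR-a KO livers, 1.08 ± 0.36 (SE, adjusted p = 0.0365), was 0.35 ± 0.21 without replicate 1 (adjusted p = 0.267). In order of mean level Pex11a ran from Cpt2 L-/- over DKO, control, Cpt2L-/- Ppara KO and PPAR-a KO to Tsc1 L-/- livers, with a gap only between DKO and control among neighbours; the libraries of the other neighbours overlapped. Without replicate 1 the mean of Cpt2L-/- Ppara KO livers was 116 CPM, at the same place in the order, but its libraries, at 92.3 to 133 CPM, no longer overlapped control libraries.

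Whether the Tsc1 deletion acted alike with and without Cpt2 was tested by the interaction of the deletions. Of the 9 genes 2 passed, both positive, beside 1.09% of all genes higher, 1.28% lower and 2.38% in either direction: Acaa1b, whose fall of 1.67 with the Tsc1 deletion alone stood against −0.09 (95% interval −0.52 to 0.34) with Cpt2 also deleted, and Pex11a, with −1.39 against −0.15 (−0.53 to 0.23). The differences of these effects were 1.57 ± 0.29 (adjusted p = 0.00896) and 1.24 ± 0.26 (SE, adjusted p = 0.017) on the log2 scale. Over the alternatives tried the adjusted p of Acaa1b ran from 1.25e-05 to 0.166 and that of Pex11a from 0.000552 to 0.314, with the highest values in a fit of all 24 libraries, where neither passed; Pex11a also did not pass with limma on either log2 FPKM scale. For Ehhadh the difference was 1.76 ± 0.75 (95% interval 0.16 to 3.35) and did not pass (adjusted p = 0.22).

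**Figure D4:**
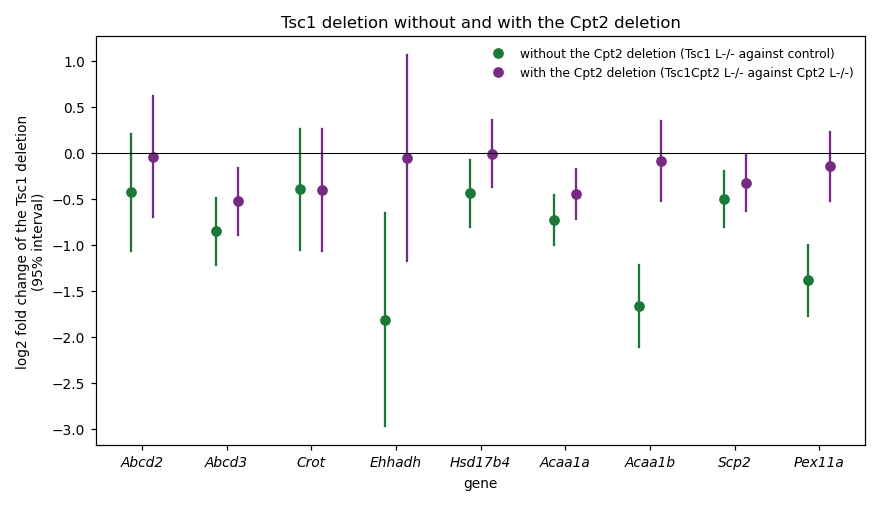
edgeR log2 fold change of the Tsc1 deletion for the 9 genes, without the Cpt2 deletion (green) and with it (purple), with 95% intervals. The intervals of Acaa1b and Pex11a do not overlap between the colours.

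The direct comparison of DKO with Cpt2 L-/- livers called Abcd3 (log2 −0.53 ± 0.17, SE, adjusted p = 0.0429) and Acaa1a (log2 −0.45 ± 0.13; adjusted p = 0.0229) lower, and the log2 fold changes of all 9 genes were below 0, from −0.53 to −0.01; those of Abcd2 and Hsd17b4 were above 0 under limma on log2 FPKM. Both calls were lost without Cpt2 L-/- replicate 2 or 3 or without DKO replicate 1, 2 or 3, and that of Abcd3 also without Cpt2 L-/- replicate 4. Alb and Cps1 were lower in DKO than in Cpt2 L-/- livers too, whereas the other hepatocyte markers were not or hardly so, as given above.

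Whether the Cpt2 deletion raised the genes alike with and without Ppara was tested by the second interaction, in which 24% of all genes were called, 12% in each direction. Abcd2 and Crot passed with all libraries. Crot had a log2 fold change of 0.44 with the Cpt2 deletion in mice with Ppara and 1.91 in PPAR-a KO mice, a difference of 1.48 ± 0.51 (SE, adjusted p = 0.0439) that was lost under most alternatives and was 0.77 ± 0.30 without replicate 1 (adjusted p = 0.0796). Without replicate 1, Abcd2 was called again (2.23), Crot was not, and 2 further genes were: Ehhadh (−1.33 ± 0.36, SE, adjusted p = 0.0153) and Pex11a (−1.26 ± 0.28; adjusted p = 0.00557), beside 22.3% of all genes. For Ehhadh the sign turned, from 1.41 ± 1.12 with all 4 libraries (adjusted p = 0.376). For Acaa1b the difference was 1.38 ± 0.53 (adjusted p = 0.0646), and 0.93 ± 0.45 without replicate 1 (SE, adjusted p = 0.149); it passed under 3 of 23 alternatives, DESeq2, all 24 libraries and without PPAR-a KO replicate 1 (adjusted p down to 0.0288).

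**Figure D5:**
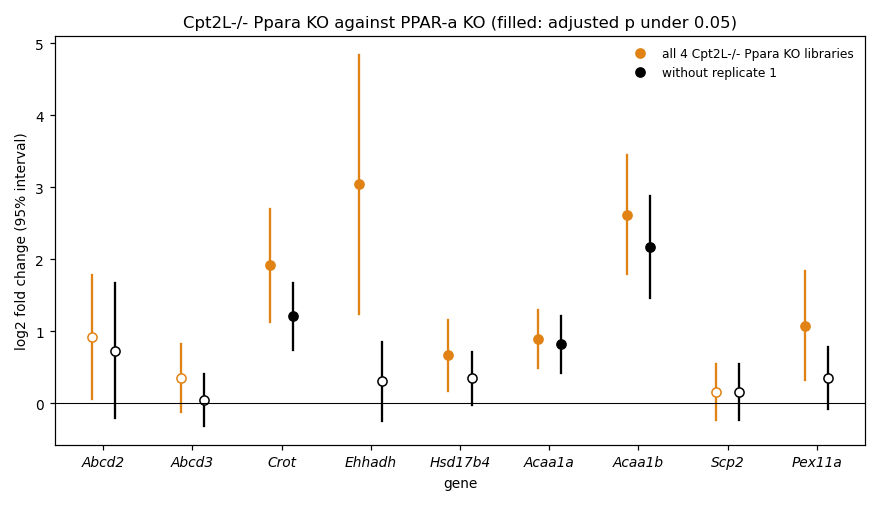
edgeR log2 fold change with 95% interval in Cpt2L-/- Ppara KO against PPAR-a KO livers, with all 4 Cpt2L-/- Ppara KO libraries (orange) and without replicate 1 (black); filled points passed an adjusted p of 0.05. Crot, Acaa1a and Acaa1b stay filled, and Ehhadh goes from 3.04 to 0.30.

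Other genes of the organelle were counted from lists written by hand. Of 22 further genes of peroxisomal fatty acid oxidation, 20 were tested. In Tsc1 L-/- livers 6 of them were lower than in control and 0 higher (2.48% and 4.16% of all genes), led by the acyl-CoA thioesterases Acot3 (log2 −3.42 ± 0.76, SE, adjusted p = 0.018) and Acot4 (−1.73 ± 0.38; adjusted p = 0.0161). Cpt2 L-/- livers had 4 higher, led by Acot6 (1.69 ± 0.29; adjusted p = 0.000228), and 3 lower, close to the 16.2% and 14.9% of all genes and led by the enoyl-CoA reductase Pecr (−2.08 ± 0.27; adjusted p = 4.05e-05) and the bile acid side chain oxidase Acox2 (−1.22 ± 0.22; adjusted p = 0.000529). DKO livers had 3 higher and 4 lower than control, close to the 19.3% and 17.1% of all genes, with Pecr again the lowest (−2.26 ± 0.27; adjusted p = 1.51e-05). They had 9 higher and 3 lower than Tsc1 L-/- livers (16.9% and 15.2% of all genes), with the carnitine acetyltransferase Crat at 2.22 ± 0.33 (SE, adjusted p = 0.000154). The medians of the list were −0.44, 0.04 and −0.15 in Tsc1 L-/-, Cpt2 L-/- and DKO livers against control.

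In PPAR-a KO livers 14 of the 20 were lower than in control (13.2% of all genes) and 1, Acot6, was higher (1.65 ± 0.33, SE, adjusted p = 0.00144), with a median of −0.98 beside 0.01 for all genes. Acot3 was lowest (−5.78 ± 0.85; adjusted p = 0.000164), and the dienoyl-CoA isomerase Ech1 had −2.44 ± 0.43 (SE, adjusted p = 0.00056). Cpt2L-/- Ppara KO livers had 10 lower and 3 higher than Cpt2 L-/- livers (8.01% and 10.3% of all genes), and 10 and 2 without replicate 1, when 21 were tested (6.59% and 6.74% of all genes). Against PPAR-a KO livers 4 were higher and 0 lower with all libraries (12.9% and 12.6% of all genes), and 1 and 1 without replicate 1, near the 5.74% and 6.69% of all genes.

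The 15 other peroxins, which build the organelle and import its proteins, were called in both directions. In Tsc1 L-/- livers 0 were higher and 3 lower than in control (4.16% and 2.48% of all genes), down to −0.67 ± 0.16 for Pex16 (SE, adjusted p = 0.0193). Cpt2 L-/- livers had 6 higher, up to 0.81 ± 0.16 for Pex16 (adjusted p = 0.0011), and 3 lower, down to −0.76 ± 0.14 for Pex7, the receptor of proteins with the second targeting signal (SE, adjusted p = 0.000635), beside 16.2% and 14.9% of all genes, and a median of 0.23. DKO livers had 4 higher and 3 lower than control (19.3% and 17.1% of all genes), with a median of 0.15. PPAR-a KO livers had 0 higher and 6 lower than control (15.9% and 13.2% of all genes), with Pex26 at −0.94 ± 0.21 (SE, adjusted p = 0.00326). None of the log2 fold changes of these 15 genes in Tsc1 L-/-, Cpt2 L-/- or PPAR-a KO livers against control was as far from 0 as that of Pex11a.

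Of 18 peroxisomal genes outside fatty acid oxidation, 16 were tested. In Tsc1 L-/- livers 0 were higher and 2 lower than in control (4.16% and 2.48% of all genes). Cpt2 L-/- livers had 0 higher and 4 lower (16.2% and 14.9% of all genes), led by the glycolate oxidase Hao1 (−2.62 ± 0.33, SE, adjusted p = 3.61e-05) and Pipox, which oxidizes pipecolate and sarcosine (−1.47 ± 0.16; adjusted p = 5.46e-06). DKO livers had 2 higher and 7 lower (19.3% and 17.1% of all genes), again with Hao1 (−2.20 ± 0.32; adjusted p = 0.000106) and Pipox (−1.86 ± 0.17; adjusted p = 3.5e-07) lowest. In PPAR-a KO livers 11 were lower and 0 higher than in control (13.2% and 15.9% of all genes), with catalase, Cat, at −1.68 ± 0.26 (SE, adjusted p = 0.000184) and the epoxide hydrolase Ephx2 at −1.42 ± 0.23 (adjusted p = 0.000255).

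By the Pearson correlation of log2 CPM over the 24 libraries, the genes most like Ehhadh among 13987 were Hadha (r = 0.976) and Hadhb (r = 0.9705), the subunits of the mitochondrial trifunctional protein, and Retsat, the retinol saturase (r = 0.964). The genes most like Pex11a were Wdr73 (r = 0.961), Gm15441 (r = 0.942) and Slc22a5, the plasma membrane carnitine carrier (r = 0.929). These correlations follow the differences between the 6 groups, which all 24 points share, and are given without a test.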

How the data were processed

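The authors sequenced liver RNA as single 75-base reads from a stranded mRNA library. They deposited raw counts per gene and FPKM values (fragments scaled by gene length and library size), in a table each. The submitters' processing notes name Bowtie 0.12.2, TopHat, STAR 2.5, HTSeq 0.6.1, DESeq2, edgeR and the builds mm8 and mm9, without their roles; the coordinates in the table were those of GRCm38 (99.84% of 34490 genes matched by identifier overlapped GENCODE M21). The deposited FPKM were recomputed from the counts and agreed within a relative 9.11e-07. Whether counting used strand is not given in the sources used here.

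Counts were tested with edgeR 4.0.16 in R 4.3.3: genes kept by filterByExpr (minimum count 10), TMM scaling, robust quasi-likelihood F tests and Benjamini-Hochberg adjustment over all genes tested, with calls at 0.05. The first fit held the 16 control, Tsc1 L-/-, Cpt2 L-/- and DKO libraries (13641 genes), the second the 16 control, Cpt2 L-/-, PPAR-a KO and Cpt2L-/- Ppara KO libraries (13615 genes), with 10 comparisons in all; standard errors were taken from the F statistic. CPM were scaled by TMM over all 24 libraries. Depths of 14470968 to 20371204 counts make counting error small except for genes such as Abcd2 in Ppara knockout livers. On simulated counts of 13441 genes for the Tsc1 L-/- comparison, 11, 43, 49 and 49 of 50 genes changed by a log2 of 0.5, 1, 2 and 3 were called, with 8 unchanged genes among 160 calls. For the PPAR-a KO comparison (13426 genes) they were 0, 25, 47 and 50 of 50, with 6 among 128. Changes of a log2 of 1 or less were thus often missed in that simulation. The data had 3952 calls in that comparison, so the adjustment was less strict there. The simulations therefore do not give the sensitivity of the tests on the data.

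The genes and lists were chosen with earlier results of these data known. All 9 genes are named; from each list the 2 called genes that moved farthest each way in a comparison could be named (an item that met this rule is not reported here), and the 3 to 5 most correlated genes for Ehhadh and Pex11a. Alternatives were DESeq2 1.42.0, other size factors, no filter, limma 3.58.1 on log2 FPKM plus 1 or 0.1, a replicate block, other sets of libraries in the fit, and leaving out each library; a PPAR-a KO comparison without Cpt2L-/- Ppara KO replicate 1 in the fit was chosen after seeing the data.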

Additional observations from a re-analysis of the deposited data

Results flagged for a closer look

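Each gene was checked in each group of 4 libraries for a library whose gap to its nearest neighbour exceeded Dixon's 95% critical value as a share of the group's range on the log2 CPM scale, a rule that chance meets in about 1 in 20 groups; 6 of 54 checks did. In Cpt2L-/- Ppara KO livers replicate 1 stood above the other 3 for Ehhadh (0.924 of the range), Acaa1b (0.893), Crot (0.842) and Abcd3 (0.834). Crot in control replicate 1 (670.0 CPM against 932 to 993 CPM) had a gap of 0.837 of the range. Acaa1a in PPAR-a KO replicate 4 (82.3 CPM against 129.9 to 140.2 CPM) had 0.857.

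Effects of the same deletion differed between genotypes for 4 genes by the interaction tests of edgeR, 2 of 9 in each, beside 2.38% of all genes for the deletions and 24% for the Cpt2 deletion and the Ppara knockout, a share the 2 genes do not exceed. The effect of the Tsc1 deletion was higher with than without the Cpt2 deletion by 1.57 on the log2 scale for Acaa1b and by 1.24 for Pex11a; neither passed in a fit of all 24 libraries (adjusted p = 0.166 and 0.314). The effect of the Cpt2 deletion was higher in PPAR-a KO than in other mice by 2.42 for Abcd2 and by 1.48 for Crot; without Cpt2L-/- Ppara KO replicate 1 the values were 2.23 and 0.77, and the latter did not pass.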

How the results depend on the processing

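Of 1584 results of single genes under the alternatives, 1423 kept their direction and their side of the threshold, 104 lost and 18 gained the call, and 39 turned direction. Calls among the 9 genes numbered 3 for Cpt2 L-/- against control in the fit with the Ppara libraries (Abcd3 and Ehhadh lost), 3 for DKO against control without a filter and with all 24 libraries, and 3 to 4 on leaving out a library. For DKO against Cpt2 L-/- livers they numbered 1 under each limma scale and with only the 2 groups, 0 with all 24 libraries, and 0 to 2 on leaving out a library. For the interaction of the deletions they numbered 1 under each limma scale (Pex11a lost) and 0 with all 24 libraries. For Cpt2L-/- Ppara KO against PPAR-a KO livers they numbered 3 without a filter, 1 with only the 2 groups and 3 to 6 on leaving out a library. For the interaction with Ppara they numbered 1 without a filter, under each limma scale and with the replicate block, and 1 to 3 on leaving out a library; Crot was lost without control replicate 2, 3 or 4, any Cpt2 L-/- replicate, PPAR-a KO replicate 2, 3 or 4 or Cpt2L-/- Ppara KO replicate 1. Pex11a in PPAR-a KO against control livers was lost without control replicate 3 or PPAR-a KO replicate 2 or 4 (adjusted p = 0.0562 to 0.0591).

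Directions turned for small differences, except for Ehhadh in the interaction with Ppara. Without Cpt2L-/- Ppara KO replicate 1 that value was −1.33 and was called. Under limma with 1 and 0.1 added, log2 values were 0.0438 and 0.0439 for Scp2 in Cpt2 L-/- against control, 0.0458 and 0.0461 for Acaa1a in DKO against control, 0.0458 and 0.0671 for Abcd2 and 0.0551 and 0.0552 for Hsd17b4 in DKO against Cpt2 L-/- livers, 0.182 and 0.184 for Crot in the interaction of the deletions, and −0.256 and −0.242 for Ehhadh in that with Ppara. On leaving out a library the ranges were −0.0975 to 0.0438 for Scp2 in Cpt2 L-/- against control, −0.0676 to 0.168 for Abcd3 and −0.0679 to 0.0997 for Crot in DKO against control, −0.231 to 0.127 for Abcd2, −0.390 to 0.116 for Ehhadh and −0.109 to 0.0424 for Hsd17b4 in DKO against Cpt2 L-/-, −0.255 to 0.446 for Crot in the interaction of the deletions, and −1.33 to 1.78 for Ehhadh in that with Ppara. The limma scales moved the median of all genes in DKO against control livers to 0.117 and 0.171, from 0.0171. The causes were not tested.

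Replicate numbers did not pair the libraries: over 60 pairs of libraries with the same number the correlation of deviations ran from −0.261 to 0.242, with 13 over 0.1, and 6 of 24 libraries correlated best with their own number. With the replicate block, Crot was 0.0682 in the interaction of the deletions, Ehhadh and Hsd17b4 were not called in Cpt2L-/- Ppara KO against PPAR-a KO livers, which left 4 calls, nor was Crot in the interaction with Ppara (adjusted p = 0.0550).

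Over all genes, calls in Tsc1 L-/- against control fell from 906 to 400 with all 24 libraries, 466 with only the 2 groups and 583 without control replicate 3. Those in Cpt2 L-/- against control fell from 4235 to 2798 and, in the fit with the Ppara libraries, 2276. Those in DKO against Cpt2 L-/- livers fell from 2494 to 1065 with all 24 libraries, 1546 without Cpt2 L-/- replicate 3 and 1428 without DKO replicate 2. Those of the interaction of the deletions went from 324 to 752 with DESeq2, 195 with limma and 0.1 added, 65 with all 24 libraries, and 150 to 211 without control replicate 2 or 4, Cpt2 L-/- replicate 3 or 4 or DKO replicate 2. In Cpt2L-/- Ppara KO livers, calls against Cpt2 L-/- fell from 2499 to 1149 and 1239 without Cpt2 L-/- replicate 3 and 4 and 1418 without Cpt2L-/- Ppara KO replicate 2. Calls against PPAR-a KO fell from 3475 to 111 with only the 2 groups, 1728 without Cpt2L-/- Ppara KO replicate 1 and 2142 without PPAR-a KO replicate 3. The background share of each comparison moves with its count.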
